A study of Mus musculus with 60 samples.

Results

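The metabotropic glutamate receptor genes measured here are Grm5 of group I, Grm2 and Grm3 of group II, and Grm4, Grm7 and Grm8 of group III. They were taken by gene name from a table of read counts over 21950 protein-coding genes, and all 6 were found there. The table holds 60 mouse brain RNA-seq libraries, 10 for each combination of 2 genotypes and 3 regions. The groups are homozygous Adgrl3 knockout (KO, Adgrl3 -/-, also written Lphn3 -/-) striatum, hippocampus and prefrontal cortex, and wild-type (WT, Adgrl3 +/+) striatum, hippocampus and prefrontal cortex. Adgrl3 encodes latrophilin 3, an adhesion G protein-coupled receptor of the synapse. The labels give 12 mice of each genotype, killed at postnatal days 65 to 76, and microdissected frozen brains. No source used here gives the strain, the sex or the deleted part of Adgrl3, and no treatment is named. The study compared the genotypes within each region and across the regions, and the same libraries give each receptor gene's level by region.

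Metabotropic glutamate receptors are dimers that bind glutamate in a large extracellular lobe and signal through G proteins. Group I receptors couple to Gq and phospholipase C and sit mostly on the postsynaptic side. Group II and group III receptors couple to Gi/o proteins, lower cyclic AMP and, on many axon terminals, hold back transmitter release. In striatum they act at the inputs from cortex and at the outputs of the projection neurons, and in hippocampus at the main excitatory pathways.

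Each library held 38985577 to 51387833 counted reads, and no member had 0 reads in any library. Adgrl3, counted over the whole gene, averaged 41.8, 34.9 and 35.2 CPM (reads scaled to a common library size) in KO striatum, hippocampus and prefrontal cortex, against 163, 125.2 and 149 CPM in the WT regions. It was lower in KO in each region (log2 difference -1.96 in striatum, -1.85 in hippocampus and -2.09 in prefrontal cortex; edgeR adjusted p = 9.6e-16, 2.54e-18 and 6.3e-09), so that the libraries matched their genotype labels. Markers of striatal projection neurons, 8 genes with a mean of 9.09 and 9.08 log2 CPM in KO and WT striatum, had means of 3.87 to 4.20 in the other groups. Markers of hippocampal neurons had means of 6.38 and 6.42 in KO and WT hippocampus and 2.95 to 3.35 elsewhere, and markers of cortical excitatory neurons 7.02 and 6.95 in KO and WT prefrontal cortex and 5.38 to 5.74 elsewhere. Some libraries held more of a neighbouring tissue's markers than others: the striatal score ranged from 3.39 to 5.82 among hippocampal libraries, and the thalamic score from 3.45 to 5.98 among striatal ones. Olfactory bulb markers averaged 0.09 ± 1.08 log2 CPM in KO and 2.00 ± 1.17 in WT prefrontal cortex (SD, n = 10 each). The labels do not say whether libraries of equal number come from 1 animal, so tests over all regions may count an animal more than once.

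In GRCm38 coordinates, Grm5 (ENSMUSG00000049583.15) lies at chr7:87584168-88134907 on the plus strand and Grm2 (ENSMUSG00000023192.12) at chr9:106643095-106656082 on the minus strand. Grm3 (ENSMUSG00000003974.6) lies at chr5:9485541-9725170 and Grm4 (ENSMUSG00000063239.16) at chr17:27422387-27513341, both on the minus strand. Grm7 (ENSMUSG00000056755.13) lies at chr6:110645581-111567230 on the plus strand and Grm8 (ENSMUSG00000024211.15) at chr6:27275119-28135178 on the minus strand. These are very unequal genes: Grm2 spans 13.0 kb, while Grm7 and Grm8 span 921.6 and 860.1 kb, with 4.89, 5.89 and 9.90 kb of annotated exon. Grm3 shares chromosome 5 with Adgrl3. No other gene of the table overlaps a member. GENCODE places 1 antisense transcript each at Grm2 and Grm7. It also places features outside the table in Grm3, Grm4, Grm5, Grm7 and Grm8, with some on the member's own strand in each. No source used here states how strand was handled, so reads of all these could not be separated from those of the members.

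RefSeq's promoter table for GRCm38.p6 lists starts for 4 of the 6 genes, Grm2, Grm3, Grm7 and Grm8. Their upstream sequence is shown, as Grm4 and Grm5 are not listed. RefSeq lists 1 start each for Grm2 and Grm3, 2 for Grm7 and 3 for Grm8, and the first listed was used. The windows are chr9:106656110-106656359 (minus), chr5:9725353-9725602 (minus), chr6:110645262-110645511 (plus) and, 218 bases long, chr6:28135179-28135396 (minus). Each runs 5' to 3' towards the start, with the GC-box letters GGGCGG (either strand) in capitals.
Grm2: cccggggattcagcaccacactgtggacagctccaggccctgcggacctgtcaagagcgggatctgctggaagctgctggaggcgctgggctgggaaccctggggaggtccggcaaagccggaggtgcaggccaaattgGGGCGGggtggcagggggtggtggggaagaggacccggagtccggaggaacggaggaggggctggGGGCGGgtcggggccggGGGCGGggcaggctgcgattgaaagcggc
Grm3: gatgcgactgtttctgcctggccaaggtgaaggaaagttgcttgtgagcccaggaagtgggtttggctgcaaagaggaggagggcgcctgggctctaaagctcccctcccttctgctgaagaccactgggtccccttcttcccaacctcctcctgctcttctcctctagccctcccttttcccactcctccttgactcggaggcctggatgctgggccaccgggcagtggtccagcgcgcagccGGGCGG
Grm7: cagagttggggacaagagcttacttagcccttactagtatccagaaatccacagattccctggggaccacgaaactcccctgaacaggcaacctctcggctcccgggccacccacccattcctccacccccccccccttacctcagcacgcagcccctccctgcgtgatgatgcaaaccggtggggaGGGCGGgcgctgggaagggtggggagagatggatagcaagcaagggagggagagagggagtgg
Grm8: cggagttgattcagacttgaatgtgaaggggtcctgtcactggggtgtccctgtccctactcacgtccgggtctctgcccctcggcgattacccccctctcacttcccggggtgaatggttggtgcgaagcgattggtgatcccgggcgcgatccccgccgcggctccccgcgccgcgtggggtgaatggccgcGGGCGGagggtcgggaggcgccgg
All 4 windows were richer in GC than the median of 52.0% over the first listed promoter of 27025 genes: 71.2% for Grm2, 62.4% for Grm3, 62.0% for Grm7 and 68.3% for Grm8. GGGCGG occurred 3 times upstream of Grm2 and once in each of the others. On either strand, 32.9% of those 27025 promoters hold it, and 31.9% hold it within the 218 bases next to the start. The E-box letters CAGATG and the cyclic AMP element core TGACG, searched on both strands, were in none of the 4 windows, and 14.5% and 17.9% of promoters of 250 bases hold them. These letters are a description of the windows and do not show binding.

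Grm5 had the highest level per kilobase of annotated exon in striatum (40.2 CPM per kb over both genotypes) and hippocampus (32.5), and followed the order striatum, hippocampus, prefrontal cortex. It encodes mGluR5, the postsynaptic Gq-coupled receptor that binds Homer scaffolds. In striatum it had 303, 408 and 503 CPM (lowest, median and highest of 10 libraries) in KO and 368, 430.2 and 451 CPM in WT. In hippocampus the values were 309, 336 and 391.5 CPM in KO and 310.3, 330 and 345 CPM in WT. In prefrontal cortex they were 145, 222 and 270.0 CPM in KO and 191, 229 and 262 CPM in WT. In WT the 3 regions did not overlap, whereas in KO the striatal range reached down over the hippocampal one, with 6 striatal libraries above every hippocampal library and 1 below all of them. Striatum exceeded hippocampus by a log2 difference of 0.25 ± 0.08 in KO and 0.36 ± 0.05 in WT (SE; edgeR adjusted p = 0.00895 and 7.77e-08), and prefrontal cortex by 0.88 ± 0.08 and 0.89 ± 0.05 (adjusted p = 3.37e-11 and 5.4e-17). Hippocampus exceeded prefrontal cortex by 0.64 ± 0.08 in KO and 0.53 ± 0.05 in WT (adjusted p = 4.34e-08 and 2.74e-11).

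Grm2 had the widest contrast of the 6 genes between striatum and prefrontal cortex. It encodes mGluR2, a group II receptor known as a brake on release from cortical and hippocampal glutamatergic terminals. It had 4.74, 12.1 and 20.7 CPM in KO striatum and 6.50, 14.5 and 21.2 CPM in WT striatum (lowest, median, highest). Hippocampus had 38.4, 58.7 and 82.4 CPM in KO and 46.5, 59.7 and 82.8 CPM in WT, and prefrontal cortex 68.3, 98.7 and 116 CPM in KO and 88.1, 97.4 and 111 CPM in WT. Every striatal library lay below every library of the other regions of its genotype. Hippocampal and prefrontal ranges were apart in WT, and in KO 7 of 10 hippocampal libraries were below all prefrontal ones. The log2 difference of striatum from prefrontal cortex was -3.03 ± 0.21 in KO and -2.82 ± 0.14 in WT, an 8.19-fold and 7.06-fold lower level (adjusted p = 9.02e-14 and 8.17e-17). From hippocampus it was -2.36 ± 0.21 in KO and -2.17 ± 0.14 in WT (adjusted p = 2e-11 and 3.08e-14). Hippocampus was lower than prefrontal cortex by a smaller step, -0.67 ± 0.19 in KO and -0.65 ± 0.13 in WT (adjusted p = 0.00265 and 7.34e-05). Relative spread was widest here too: the coefficient of variation in striatum was 46.1% in KO and 31.9% in WT.

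Grm3, the other group II gene, ran the opposite way in striatum. Its product mGluR3 is found on neurons and on astrocytes and also responds to the peptide N-acetylaspartylglutamate. It had 77.8, 92.9 and 108 CPM in KO striatum and 80.4, 93.4 and 102 CPM in WT striatum. Hippocampal libraries held 38.1, 43.6 and 51.4 CPM in KO and 37.6, 42.8 and 49.0 CPM in WT, and prefrontal ones 48.6, 82.8 and 99.99 CPM in KO and 52.7, 76.5 and 99.8 CPM in WT. Striatal and hippocampal libraries were fully apart in both genotypes, while striatal and prefrontal ranges overlapped in both. Striatum exceeded hippocampus by 1.10 ± 0.09 log2 units in KO and 1.11 ± 0.08 in WT (adjusted p = 1.12e-12 and 1.19e-13). Hippocampus was below prefrontal cortex by -0.87 ± 0.09 in KO and -0.84 ± 0.08 in WT (adjusted p = 2.76e-10 and 9.73e-11). The step from striatum to prefrontal cortex was small, 0.23 ± 0.09 in KO and 0.28 ± 0.08 in WT, and passed in both (adjusted p = 0.0167 and 0.00262). 

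Grm4 was the striatal member of group III. It encodes mGluR4, a presynaptic receptor known from the terminals of striatal output neurons and of cerebellar granule cells. Striatal libraries had 66.8, 80.5 and 89.7 CPM in KO and 64.6, 69.4 and 84.4 CPM in WT. Hippocampal libraries had 10.2, 14.0 and 22.2 CPM in KO and 8.92, 13.4 and 18.8 CPM in WT, and prefrontal ones 18.9, 25.1 and 29.8 CPM in KO and 21.1, 24.5 and 25.9 CPM in WT. Every striatal library lay above every library of the other regions of its genotype, while hippocampal and prefrontal ranges were apart in WT and overlapped in KO. Striatum exceeded hippocampus 5.36-fold in KO and 5.41-fold in WT (log2 difference 2.42 ± 0.11 and 2.44 ± 0.09; adjusted p = 4.97e-18 and 1.26e-21). It exceeded prefrontal cortex 3.16-fold in KO and 2.98-fold in WT (1.66 ± 0.11 and 1.58 ± 0.08; adjusted p = 2.46e-14 and 3.5e-17). Hippocampus was lower than prefrontal cortex, by -0.76 ± 0.11 in KO and -0.86 ± 0.09 in WT (adjusted p = 6.11e-07 and 1.88e-10). The deposited Grm4 ends at position 27513341, short of GENCODE M21's 27521403, so that its upstream end was not counted.

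Grm7 was nearly level across the 3 regions. mGluR7, its product, is a widespread receptor of the presynaptic active zone with low affinity for glutamate. It had 64.6, 71.7 and 81.4 CPM in KO striatum and 67.9, 75.4 and 80.9 CPM in WT striatum. The hippocampal values were 62.2, 71.3 and 74.4 CPM in KO and 62.5, 68.0 and 76.5 CPM in WT, and the prefrontal values 65.7, 73.3 and 78.1 CPM in KO and 65.6, 71.9 and 78.2 CPM in WT. All 6 groups overlapped. Striatum was above hippocampus in WT by 0.11 ± 0.04 log2 units, which passed (adjusted p = 0.0137). The same step was 0.03 ± 0.04 in KO (adjusted p = 0.601). Neither contrast with prefrontal cortex passed in either genotype: striatum differed by -0.02 ± 0.04 in KO and 0.05 ± 0.04 in WT, and hippocampus by -0.05 ± 0.04 in KO and -0.06 ± 0.04 in WT (adjusted p = 0.633, 0.288, 0.301 and 0.146). These 4 95% intervals reached from -0.14 (hippocampus in WT) to 0.13 (striatum in WT).

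Grm8 was the prefrontal member of group III, though a minor one in all regions. It encodes mGluR8, a presynaptic receptor with high affinity for glutamate among the group III forms. It had 12.8, 15.4 and 21.0 CPM in KO striatum and 11.6, 16.3 and 20.3 CPM in WT striatum. Hippocampus had 7.51, 10.03 and 16.5 CPM in KO and 7.50, 10.5 and 13.5 CPM in WT, and prefrontal cortex 28.7, 31.8 and 34.2 CPM in KO and 28.6, 31.9 and 35.9 CPM in WT. Prefrontal libraries stood above all others, while striatal and hippocampal ranges overlapped in both genotypes. Hippocampus was lower than prefrontal cortex 3.05-fold in KO and 3.09-fold in WT (log2 difference -1.61 ± 0.11 and -1.63 ± 0.10; adjusted p = 2.39e-14 and 7.11e-15). Striatum was lower than prefrontal cortex by -1.01 ± 0.10 in KO and -0.98 ± 0.10 in WT (adjusted p = 4e-10 and 4.18e-10) and higher than hippocampus by 0.60 ± 0.11 and 0.65 ± 0.10 (adjusted p = 1.14e-05 and 2.14e-06).

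**Figure D1:**
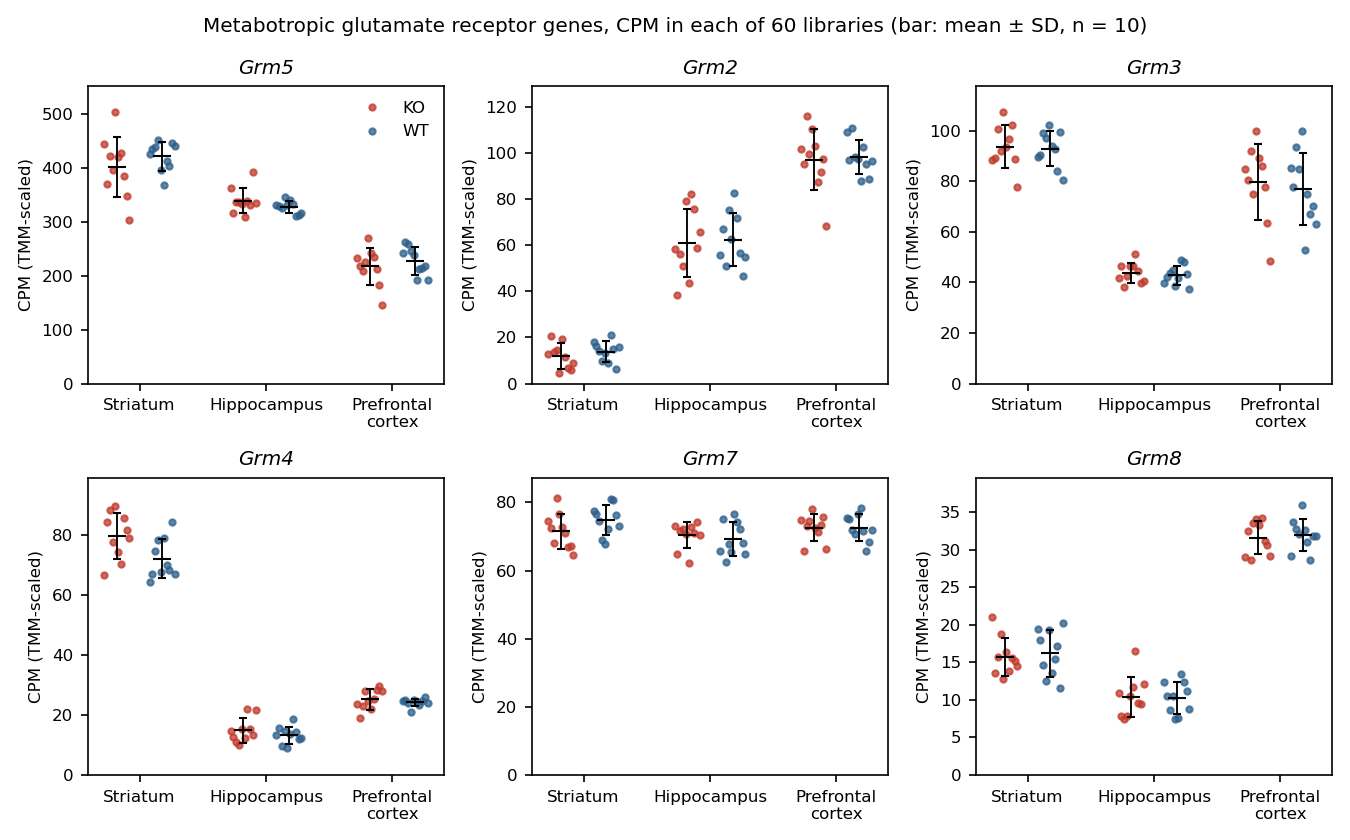
CPM (TMM-scaled, linear axis from 0) of each receptor gene in each library, with KO in red left of WT in blue within each region; black bars are mean ± SD, n = 10. Grm2 is lowest and Grm4 highest in striatum, Grm8 is highest in prefrontal cortex, and Grm7 is nearly level.

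Bulk RNA cannot tell apart fewer cells of a type and less RNA per cell, so these are levels of the tissue piece. Differences between these regions were common over all genes, and counts of members are read against that background. Library ranges were compared for the members only, so that ranges apart or overlapping have no such background. Of the 6 members, 5 in KO and 6 in WT differed between striatum and hippocampus, against 62.5% and 66.6% of all tested genes (edgeR adjusted p under 0.05). Between striatum and prefrontal cortex 5 differed in each genotype, against 70.9% in KO and 71.5% in WT. Between hippocampus and prefrontal cortex 5 differed in each genotype, against 66.0% in KO and 68.5% in WT. With an added minimum of 2-fold, 3 members passed between striatum and hippocampus in each genotype (Grm2, Grm3 and Grm4), against 10.4% of genes in KO and 10.2% in WT. Between striatum and prefrontal cortex 3 passed in KO and 2 in WT, the added one being Grm8 at -1.01 in KO and -0.98 in WT, against 12.6% and 11.6%. Between hippocampus and prefrontal cortex only Grm8 passed in each genotype, against 9.74% in KO and 10.1% in WT.

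**Figure D2:**
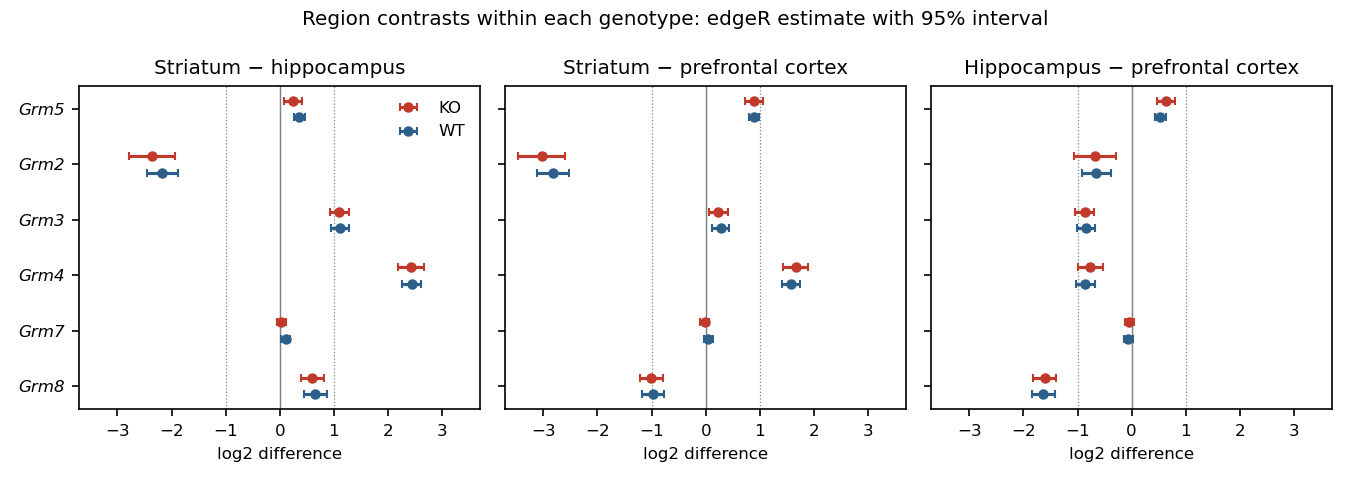
Log2 difference between regions for each receptor gene, with its 95% interval, fitted within KO (red, upper) and WT (blue, lower); dotted lines mark 2-fold. Grm2 and Grm4 point opposite ways in both contrasts with striatum, and KO and WT estimates lie close together.

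Per kilobase of annotated exon, the make-up of the 6 genes differed by region. Grm5 took 39.3 ± 2.46% of the sum in KO and 40.7 ± 1.79% in WT striatum, 44.0 ± 2.85% in KO and 43.4 ± 1.95% in WT hippocampus, and 24.3 ± 1.49% in KO and 25.5 ± 1.26% in WT prefrontal cortex (SD, n = 10 each). In prefrontal cortex Grm3 took the largest share on this scale, 29.9 ± 2.51% in KO and 28.7 ± 2.91% in WT. Grm2 made up 2.45 ± 1.11% of the sum in KO and 2.82 ± 0.90% in WT striatum, against 22.8 ± 1.54% and 23.2 ± 1.43% in prefrontal cortex. Grm4 made up 13.5 ± 1.58% and 12.0 ± 1.0% in KO and WT striatum, and 3.28 ± 0.75% and 3.01 ± 0.51% in hippocampus. The exon length used for Grm4 includes any exon in its uncounted upstream end, which would lower its shares. The table lists each gene by start and end without exons, so reads from introns may be in the counts and weigh most on the longest genes. Per kilobase of whole gene the order changed: Grm2, the shortest, led in every region, with 0.916 and 1.07 CPM per kb in KO and WT striatum and 7.48 and 7.58 in prefrontal cortex, while Grm8 was lowest with 0.0183 and 0.0188 CPM per kb in KO and WT striatum and 0.0367 and 0.0371 in prefrontal cortex.

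**Figure D3:**
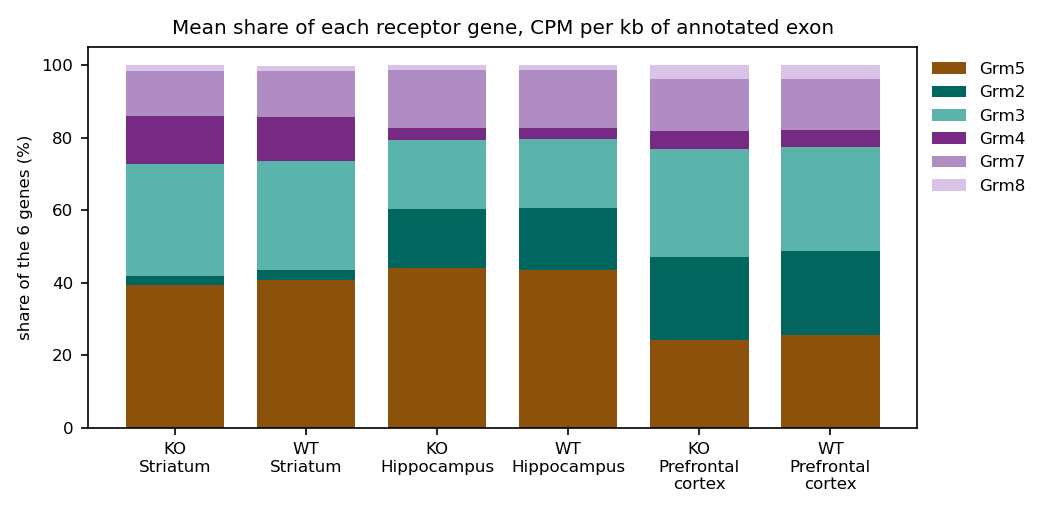
Stacked mean share of each receptor gene in the sum of the 6, in CPM per kb of annotated exon, by group (10 libraries each). Grm5 leads in striatum and hippocampus, Grm3 leads in prefrontal cortex, and Grm2 nearly drops out in striatum.

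No receptor gene passed between KO and WT in any region. The count was 0 of 6 in striatum, where 0.0514% of all tested genes passed, 0 of 6 in hippocampus (0.128%) and 0 of 6 in prefrontal cortex (0.117%). It was also 0 of 6 over the 3 regions combined with region in the model (4.06%, or 649 genes, against 192 with equal replicate numbers within a genotype as 1 animal), and 0 of 6 for an interaction of genotype and region (0.0248%). At an unadjusted p under 0.05, Grm4 passed in striatum and over the combined regions, and no other member passed anywhere. Over all genes tested, 7.14% had such a p in striatum, 8.14% in hippocampus, 11.8% in prefrontal cortex, 18.5% combined and 3.96% for the interaction (1110, 1269, 1808, 2965 and 638 genes), so that 1 of 6 members is close to the combined share. The edgeR adjusted p of the interaction was 1 for each member.

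Grm4 had the smallest p. It averaged 79.9 ± 7.62 CPM in KO and 72.2 ± 6.56 CPM in WT striatum (SD, n = 10 each), and 3 of 10 KO libraries were above every WT library. The log2 difference was 0.15 ± 0.06 (95% interval 0.03 to 0.27; edgeR unadjusted p = 0.0169, adjusted p = 0.664). It was 0.16 ± 0.15 in hippocampus (-0.15 to 0.47; adjusted p = 0.814), 0.05 ± 0.06 in prefrontal cortex (-0.08 to 0.18; adjusted p = 0.824) and 0.12 ± 0.06 over the combined regions (0.01 to 0.23; adjusted p = 0.237). With the cortical excitatory marker score in the model, an alternative chosen after the data were seen, the striatal difference was 0.12 (adjusted p = 0.618). The adjusted p of the striatal difference ranged from 0.362 to 0.977 over all alternatives.

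The other members passed in no region, and their intervals differed in width. Striatal Grm2 had the largest estimate in size, -0.23 ± 0.26, with the widest interval of all (-0.76 to 0.31; adjusted p = 0.846). It ran from -0.348 without KO replicate 2 to -0.132 without KO replicate 5, and was -0.072 with the cortical score in the model (adjusted p = 0.95). In striatum Grm7 differed by -0.06 ± 0.04 (-0.15 to 0.02) and Grm5 by -0.07 ± 0.07 (-0.20 to 0.07). Grm3 differed there by 0.01 ± 0.05 (-0.09 to 0.12) and Grm8 by -0.04 ± 0.10 (-0.26 to 0.18). In hippocampus Grm5 differed by 0.05 ± 0.03 (-0.02 to 0.12), Grm3 by 0.03 ± 0.06, Grm7 by 0.02 ± 0.04, Grm2 by -0.04 ± 0.14 and Grm8 by 0.01 ± 0.14. In prefrontal cortex the 5 estimates ran from -0.07 ± 0.09 for Grm5 to 0.05 ± 0.12 for Grm3. The ranges of KO and WT libraries overlapped for every member in every region, and how many of all genes do so was not counted. In prefrontal cortex KO replicate 10 held the lowest value of all 20 libraries for Grm5, Grm2 and Grm3, at 145, 68.3 and 48.6 CPM, and also the lowest Adgrl3, at 16.5 CPM; whether a property of that library accounts for this was not tested, and without each library in turn no member passed.

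**Figure D4:**
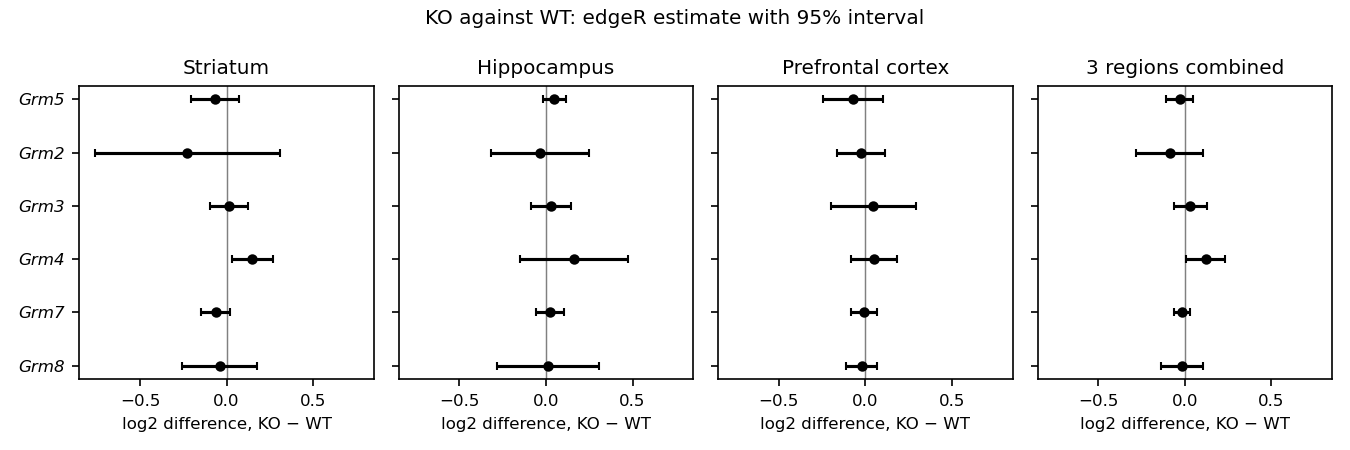
Log2 difference of KO minus WT for each receptor gene in striatum, hippocampus, prefrontal cortex and the 3 regions combined (edgeR estimate and 95% interval; the line marks 0). Grm4 lies right of 0 in striatum and in the combined fit before adjustment over all genes, and Grm2 in striatum has the widest interval.

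Within striatum, several members followed marker scores of other tissues or of cell types. Each member was set against 15 marker scores and the mitochondrial share of reads in the 20 libraries of each region, 288 relations in all, chosen after the data were seen. Of these, 16 passed at adjusted p under 0.05 by both Pearson's r and Spearman's rho (permutation tests, two-sided, 100000 permutations), 9 in striatum, 7 in hippocampus and 0 in prefrontal cortex. The cortical excitatory score is the mean log2 CPM of 8 markers, all measured and none at 0 in any library, whose summed level was 481 to 1215 CPM in KO and 586 to 1038 CPM in WT striatum, against 2368 to 2598 CPM and 2281 to 2610 CPM in prefrontal cortex.

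Striatal Grm2 was higher in libraries with a higher cortical score: r = 0.86 and rho = 0.80 (n = 20; permutation p = 1e-05, the smallest that can be had, and 7e-05; adjusted 0.00144 and 0.00504). The r was 0.83 among KO and 0.91 among WT libraries, and 0.78 without the 2 libraries farthest from the median score. Grm8 followed the same score, with r = 0.65 and rho = 0.75 (permutation p = 0.00204 and 0.0004; adjusted 0.0346 and 0.0115), r = 0.59 among KO and 0.77 among WT libraries, and 0.70 without the 2 farthest. Grm4 ran against it, with r = -0.69 and rho = -0.78 (permutation p = 0.00073 and 0.00012; adjusted 0.015 and 0.00672), r = -0.60 among KO and -0.87 among WT libraries, and -0.64 without the 2 farthest. The lowest striatal Grm2 values, 4.74 CPM in KO replicate 5 and 5.925 CPM in KO replicate 9, belonged to the 2 libraries of lowest cortical score, 4.997 and 4.895. KO replicate 2 departed from this, with the highest KO value of Grm2, 20.7 CPM, at a score of 5.38. The part of cortical tissue in the striatal Grm2 level was not tested.

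**Figure D5:**
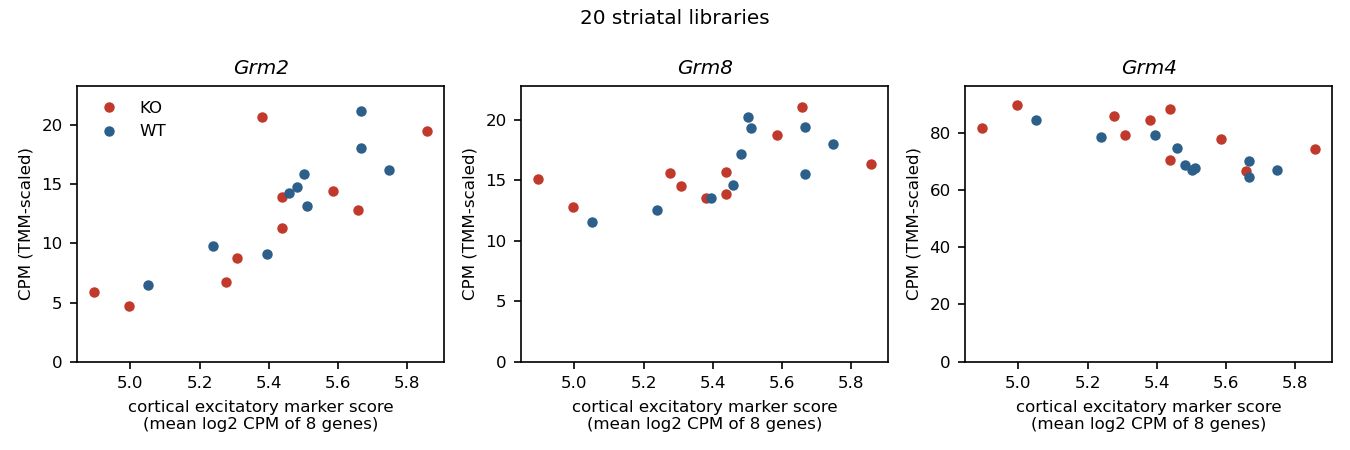
CPM of Grm2, Grm8 and Grm4 (linear axis from 0) against the cortical excitatory marker score (mean log2 CPM of 8 genes) in the 20 striatal libraries, KO in red and WT in blue. Grm2 and Grm8 are higher and Grm4 lower in libraries of higher score, in both genotypes.

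Striatal Grm5 was lower where interneuron and thalamic scores were higher. The 8 interneuron markers, Gad1 and Gad2 among them, summed to 1112 to 1441 CPM in KO and 1202 to 1425 CPM in WT striatum. In WT hippocampus and WT prefrontal cortex they summed to 706 to 812 CPM and 760 to 930 CPM. This score therefore need not measure interneurons alone in striatum. With the interneuron score r was -0.81 and rho -0.82 (n = 20; permutation p = 2e-05 and 5e-05; adjusted 0.00144 and 0.00504), -0.91 among KO and -0.54 among WT libraries, and -0.79 without the 2 farthest. With the thalamic score r was -0.79 and rho -0.76 (permutation p = 3e-05 and 0.00025; adjusted 0.00173 and 0.00896), -0.87 among KO and -0.56 among WT libraries, and -0.70 without the 2 farthest. The 6 thalamic markers summed to 111 to 523 CPM in KO and 122 to 365 CPM in WT striatum, and none was at 0 in any library. KO replicate 10 had the highest thalamic score, 5.98, and the lowest striatal Grm5, 303 CPM. The hypothalamic score, which KO replicates 2, 9 and 10 led at 2.09, 2.49 and 3.01, gave r = -0.83 and rho = -0.63 (permutation p = 2e-05 and 0.00326; adjusted 0.00144 and 0.0447), with -0.65 without the 2 farthest. Its r was -0.93 among KO libraries, whose scores ran from -1.55 to 3.01. Among WT libraries r was 0.04, but their scores ran only from -0.97 to 0.06, so that WT gives little to read the relation from. The score holds 6 of the 7 listed hypothalamic markers, since Hcrt did not pass the filter on low counts. Pmch, which is in it, was at 0 in some KO libraries.

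In hippocampus Grm4 followed the cortical score, with r = 0.80 and rho = 0.81 (n = 20; permutation p = 2e-05 and 5e-05; adjusted 0.00144 and 0.00504), 0.86 among KO and 0.79 among WT libraries, and 0.79 without the 2 farthest. The 8 cortical markers summed to 1500 to 1836 CPM in KO and 1440 to 1743 CPM in WT hippocampus. Slc17a7, a gene of hippocampal excitatory neurons too, averaged 1302 and 1283 CPM there, so this score need not measure cortical tissue in hippocampus. Hippocampal Grm5 and Grm2 were lower where the striatal score was higher. For Grm5 r was -0.67 and rho -0.80 (permutation p = 0.00155 and 7e-05; adjusted 0.0279 and 0.00504), -0.71 among KO and -0.76 among WT libraries, and -0.63 without the 2 farthest. For Grm2 r was -0.70 and rho -0.68 (permutation p = 0.00052 and 0.00119; adjusted 0.0136 and 0.0251), -0.78 among KO and -0.64 among WT libraries, and -0.68 without the 2 farthest. Grm3 passed in none of its 48 relations. The other 7 passing relations had adjusted p of at most 0.0458 for r and 0.0406 for rho. In striatum they were Grm2 with the striatal score (r = -0.72, rho = -0.65), Grm4 with endothelial markers (0.73 and 0.75) and Grm7 with oligodendrocyte markers (-0.72 and -0.72). In hippocampus they were Grm5 and Grm7 with choroid plexus markers (-0.67 and -0.75; -0.70 and -0.75), Grm8 with hippocampal neuron markers (-0.63 and -0.65), and Grm2 with cerebellar granule cell markers (0.72 and 0.66), the last with r = 0.91 among KO libraries (scores -1.26 to 0.72) and 0.14 among WT libraries (scores -0.69 to -0.02). Gabra6 is not in the cerebellar score. The 4 genes in it, Neurod1 among them, summed to only 13.0 to 21.5 CPM in KO and 15.3 to 24.8 CPM in WT hippocampus. In striatum they summed to 0.674 to 2.41 CPM in KO and 0.973 to 4.63 CPM in WT. This score need not measure cerebellar tissue in hippocampus.

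The genes whose log2 CPM ran most like each member over the 60 libraries mirror the regional patterns, and the values below are descriptions over points that share regions. Pik3c2a, a phosphoinositide kinase gene, Dcc, a netrin receptor gene, and Anapc1, a cell-cycle ubiquitin ligase subunit gene, were most like Grm5 (r = 0.96 each). Sobp, Sidt1 and Sprn were most like Grm2 (0.98 each). Cacna1i, a T-type calcium channel gene, Dock3, and Itpr1, the inositol trisphosphate receptor gene, were most like Grm3 (0.97 each). Sgpp2 and Sh2d5 were among those most like Grm4 (0.98 each). Dpp10, an auxiliary subunit gene of A-type potassium channels, Fhod3 and Vopp1 were most like Grm8 (0.97 each). For Grm7, which had little regional pattern to share, the highest values were 0.67 for Ica1l, 0.64 for Pou2f2 and 0.62 for Celf5.

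Once the 6 group means were removed, the likeness was lower and partly to other genes. Gsk3b, a kinase gene, and Fnip1 had r = 0.91 and 0.90 with Grm5, Dennd4a and Anapc1 0.86 and 0.85 with Grm3, and Sobp and Adcy2, an adenylyl cyclase gene, 0.83 each with Grm2. Gdpd5 and Plxdc1 had 0.78 each with Grm4, Slc35f1 and Dpp10 0.76 and 0.75 with Grm8, and Pogz and Ica1l 0.66 and 0.64 with Grm7. Among the members themselves Grm3 and Grm4 ran together over the 60 libraries (r = 0.82) and Grm2 against Grm4 and Grm5 (-0.79 and -0.76). Within groups the highest pair was Grm5 with Grm3 (0.66).

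Partners of the receptors were followed through 5 lists. In the Gq list of 12 genes, Itpr1 was higher in striatum than in hippocampus (log2 difference 1.36 ± 0.06 in WT; edgeR adjusted p = 4.22e-20), and Prkca, a protein kinase C gene, was lower (-1.03 ± 0.05; adjusted p = 1.74e-18). In WT, 5 genes of this list were higher and 6 lower in striatum than in hippocampus, against 32.7% higher and 33.9% lower among all genes, with a median of -0.08 in the list and 0.00 over all genes. Against prefrontal cortex 5 were higher and 6 lower in striatum (36.9% and 34.6% of all genes), and 6 higher and 4 lower in hippocampus (36.9% and 31.6%). Plcb4, a phospholipase C gene, was lower in hippocampus than in prefrontal cortex (-1.39 ± 0.11; adjusted p = 6.62e-13).

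In the Gi/o list of 18 genes, Adcy5, the main adenylyl cyclase gene of striatum, stood out with 1371 ± 228 CPM in KO and 1389 ± 147 CPM in WT striatum, against 172 ± 26.9 and 167 ± 32.1 CPM in hippocampus. Its log2 difference between striatum and hippocampus was 3.00 ± 0.09 in KO and 3.05 ± 0.09 in WT (adjusted p = 2.74e-23 and 7.01e-24). Rgs4, a brake on Gi/o and Gq signalling, was 2.13 ± 0.07 higher in KO and 2.18 ± 0.06 higher in WT striatum than in hippocampus (adjusted p = 6.17e-23 and 1.59e-25). In WT, 6 genes of the list were higher and 11 lower in striatum than in hippocampus (median -0.25), 6 higher and 11 lower in striatum than in prefrontal cortex (median -0.42), and 4 higher and 8 lower in hippocampus than in prefrontal cortex (median -0.06). Over all genes 32.7% were higher and 33.9% lower, 36.9% and 34.6%, and 36.9% and 31.6% in these 3 comparisons, with medians of 0.00, 0.01 and 0.03.

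In the scaffold and interactor list of 16 genes, Homer3 was the hippocampal one, with 59.9 ± 13.1 CPM in KO and 56.8 ± 6.90 CPM in WT hippocampus against 5.53 ± 0.41 and 5.38 ± 0.59 CPM in prefrontal cortex (log2 difference 3.43 ± 0.10 and 3.41 ± 0.08; adjusted p = 1.16e-22 and 3.37e-26). Homer2 and Shank1 were lower in striatum than in prefrontal cortex (-1.40 ± 0.06 and -1.39 ± 0.07 in WT; adjusted p = 7.35e-20 and 2.11e-18), and Shank3 was higher (0.73 ± 0.04; adjusted p = 7.06e-17). In WT the list had 4 higher and 10 lower in striatum than in hippocampus, 4 higher and 7 lower in striatum than in prefrontal cortex, and 6 higher and 7 lower in hippocampus than in prefrontal cortex, with medians of -0.31, -0.05 and -0.12. In the same comparisons 66.6%, 71.5% and 68.5% of all genes passed in either direction, with medians of 0.00, 0.01 and 0.03.

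In the glutamate release, uptake and synthesis list of 12 genes, Slc17a7, the vesicular transporter gene of cortical and hippocampal excitatory neurons, was lower in striatum than in prefrontal cortex (-1.55 ± 0.08 in WT; adjusted p = 4.38e-17), and Slc17a8, a vesicular transporter gene of some interneurons, was higher (1.85 ± 0.09; adjusted p = 5.91e-18). In WT, 2 of its genes were higher and 4 lower in striatum than in hippocampus, 3 higher and 6 lower in striatum than in prefrontal cortex, and 5 higher and 6 lower in hippocampus than in prefrontal cortex, with medians of -0.07, -0.09 and -0.13, beside 66.6%, 71.5% and 68.5% of all genes passing in either direction and all-gene medians of 0.00, 0.01 and 0.03. The N-acetylaspartylglutamate list holds 7 genes that make, carry or break down this dipeptide or its precursor. In WT, Rimkla, a synthetase gene, and Aspa, the aspartoacylase gene of oligodendrocytes, were higher in striatum than in prefrontal cortex (1.13 ± 0.05 and 2.18 ± 0.12; adjusted p = 3.16e-19 and 1.25e-16). The list had 4 higher and 2 lower in striatum than in hippocampus, 4 higher and 3 lower in striatum than in prefrontal cortex, and 3 higher and 2 lower in hippocampus than in prefrontal cortex, with medians of 0.14, 0.71 and 0.10, beside the same 66.6%, 71.5% and 68.5% of all genes and medians of 0.00, 0.01 and 0.03.

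Between KO and WT, 0 genes of the 5 lists passed within a single region. Over the combined regions 2 of 16 scaffold genes were higher in KO, where 2.16% of all genes were, and 0 of the other 4 lists passed. Homer1, which encodes the scaffold that links mGluR5 to intracellular calcium stores and the postsynaptic density, and whose short form is induced by activity, averaged 288 ± 36.7 CPM in KO and 237 ± 37.3 CPM in WT striatum, 136 ± 26.9 and 114 ± 7.76 CPM in hippocampus, and 316 ± 121.5 and 225.5 ± 59.9 CPM in prefrontal cortex (SD, n = 10 each). Its forms cannot be told apart in counts per gene. The combined log2 difference was 0.34 ± 0.08 (edgeR adjusted p = 0.0079), and the region values were 0.28 ± 0.09, 0.26 ± 0.09 and 0.48 ± 0.20 in striatum, hippocampus and prefrontal cortex (adjusted p = 0.514, 0.451 and 0.351). With equal replicate numbers within a genotype as 1 animal, Homer1 was only just under the threshold (0.32, limma adjusted p = 0.0478). With counts summed over the 3 regions per replicate number, Homer1 no longer passed (0.36, edgeR adjusted p = 0.32). Shank3 was higher by 0.08 ± 0.02 (adjusted p = 0.0454), which was lost in 10 of 20 fits without 1 replicate number, with summed counts (0.08; adjusted p = 0.276), with equal numbers as 1 animal (0.08; adjusted p = 0.188) and with the olfactory bulb score in the model (0.07; adjusted p = 0.115). Among the genes of smallest p that did not pass were Grip1 of the scaffold list (-0.09 ± 0.03; adjusted p = 0.0523), the astrocyte glutamate transporter gene Slc1a3 (0.07 ± 0.02; adjusted p = 0.0692), Rgs8 of the Gi/o list (0.08 ± 0.03; adjusted p = 0.111) and Dagla, which makes an endocannabinoid downstream of Gq (0.08 ± 0.03; adjusted p = 0.112). In prefrontal cortex alone Dagla was at 0.19 ± 0.04 (adjusted p = 0.052).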

How the data were processed

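RNA-seq was made from 60 mouse brain samples. The values are read counts per gene as deposited by the authors, not normalized, with 1 row for each of 21950 protein-coding genes. The submitters' processing notes name GRCm38, bedtools, DESeq2 1.16.1, STAR 2.5.2b, cutadapt 1.16 and FastQC 0.11.4; no source used here gives counter settings or strand handling. Of the genes found in GENCODE M21, 90.1% have the same coordinates, and exon lengths were taken from it.

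Groups come from the sample titles. Each library holds 38985577 to 51387833 counts, and every member had 204 reads or more in each library; precision is set by the spread between libraries. Libraries of 1 group differed by more than sampling noise (chi-square per degree of freedom 5.56 to 92.8 over 270 pairs). No label says which libraries share an animal. For equal replicate numbers in 2 groups, it was asked whether every pair's deviations from the group means correlated over 0.1. Within each genotype this held for striatum with prefrontal cortex and for hippocampus with prefrontal cortex (10 of 10 pairs, 0.158 to 0.365), but not for striatum with hippocampus (8 of 10) or between genotypes. The main fits hold no block, so p-values of the combined and region fits ignore a shared unit.

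Genotypes were compared with edgeR 4.0.16 in R 4.3.3 (TMM, filterByExpr, robust quasi-likelihood, Benjamini-Hochberg over all genes, threshold 0.05), with 20 libraries per region and 60 combined; regions were compared within a genotype over 30 libraries. Values in CPM use TMM over all 60 libraries. Alternatives were DESeq2 1.42.0, limma 3.58.1 (voom), other size factors and filters, a single fit, replicate blocks, summed counts, each replicate left out, an olfactory bulb score of 4 genes as a covariate and, added after the data were seen, a cortical score. The edgeR steps were tested on simulated data. The text names the 6 members, Adgrl3, up to 4 genes of smallest p per pathway list and comparison, and the 3 and 2 genes most like each member, over libraries and after group means were removed; some genes that this rule names are not reported here, and replicates singled out were chosen after their values were seen. The members and lists were chosen with earlier results of these data known.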

Additional observations from a re-analysis of the deposited data

Results flagged for a closer look

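Among 36 groups of 10 libraries, 6 genes in 6 groups, 1 held a library far from the others. Grm8 in KO hippocampus had 16.45 CPM in replicate 7, against 12.12 CPM in the next library and a group median of 10.03 CPM. About 1 in 20 such groups is picked out by chance. The same library had the highest cortical excitatory score but 1 of its group, 5.95 log2 CPM, and the highest thalamic score of its group, 4.74; their part in the Grm8 value was not tested.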

How the results depend on the processing

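For all members, the counts passing between genotypes (0 of 6 in each region, combined and for the interaction) and between regions were within 1.5 times under every alternative run. Single members' differences kept their direction and their side of the threshold in 934 of 960 fits without 1 replicate and in 450 of 462 other settings. These totals pool genotype differences, the often larger region differences, and the interaction, which has no direction and was judged by its adjusted p only. They are therefore not a rate for the genotype differences alone.

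The exceptions were genotype differences near 0 that changed sign and passed in no fit. These were, with voom quality weights, Grm4 (-0.011) and Grm8 (0.009) in prefrontal cortex, Grm8 in hippocampus (-0.007), and Grm7 (0.000) and Grm8 (0.008) combined; with the cortical score, Grm2 (0.002), Grm4 (-0.014) and Grm5 (0.044) in prefrontal cortex and Grm8 in hippocampus (0.000) and striatum (0.023); with the olfactory bulb score, Grm7 in prefrontal cortex (0.002). The cause was not tested. Leaving out each replicate gave Grm2 -0.096 to 0.022 in hippocampus and -0.057 to 0.021 in prefrontal cortex, Grm3 0.000 to 0.051 in hippocampus, -0.003 to 0.108 in prefrontal cortex and -0.009 to 0.042 in striatum, Grm5 -0.054 to 0.002 combined, Grm7 -0.022 to 0.008 in prefrontal cortex, and Grm8 -0.087 to 0.058 in hippocampus, -0.093 to 0.003 in striatum and -0.044 to 0.004 combined.

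Counts over all genes moved more. Against 8, 20, 18 and 649 calls in striatum, hippocampus, prefrontal cortex and combined, DESeq2 gave 25, 47 and 214 in the 3 regions, the single fit 22 in striatum and 208 in prefrontal cortex, voom 55 in prefrontal cortex, the olfactory bulb score 6 there and 357 combined, the cortical score 11 in prefrontal cortex, and summed counts 27 combined; the interaction's 4 calls became 1 with other size factors or filters. Leaving out replicates gave 5 to 15, 12 to 26, 9 to 68 and 311 to 1133 calls, and 0 to 23 for the interaction (23 without KO replicate 7).

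Equal numbers of KO and WT correlated over 0.1 in 5 of 30 pairs (-0.512 to 0.304), so the numbers do not pair the genotypes. Between regions of 1 genotype, equal numbers as 1 animal changed no member's call. The replicate block over genotypes gave 3, 5, 10 and 1060 calls, equal numbers as 1 animal 192 combined and 0 for the interaction; no member passed, and Grm8 in hippocampus changed sign (-0.001). Depth does not limit the members, all with 204 reads or more; the spread of striatal Grm2 does.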
